A study of Mus musculus with 9 samples.

Results

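The comparison described here is that of retinas homozygous for the Rbpms-CreERT2 knock-in with wild-type retinas. It takes in 6 of the 9 RNA-Seq libraries of the series, chosen by the genotype that their labels give. Of these, 3 come from Rbpms-CreERT2/CreERT2 mice (Cre/Cre) and 3 from +/+ mice. The remaining 3 libraries, from Rbpms-CreERT2/+ mice (Cre/+), entered the estimate of the spread and are given beside the results. All mice were on the C57BL/6J background and were sampled at postnatal day 42 (P42), and each library holds the RNA of a pair of whole retinas. No tamoxifen is named for these libraries, so the recombinase was present without a stated inducer. The knock-in places the coding sequence of P2A-CreERT2 in frame at the C-terminus of RBPMS, under control of the endogenous Rbpms gene. The question of the comparison is whether carrying the cassette on both alleles alters the transcriptome of the retina. Of 25239 genes listed, 15198 had a mean TPM (transcripts per 1000000) of at least 1 over the 9 libraries and were tested.

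RBPMS is an RNA-binding protein with a role in splicing, and in the retina it is found in retinal ganglion cells (RGCs), the neurons whose axons form the optic nerve. RGCs are a small minority of retinal cells, while rod photoreceptors are the majority, so transcripts particular to RGCs are diluted in RNA of the whole retina. CreERT2 is a Cre recombinase fused to a mutated ligand-binding domain of the human oestrogen receptor. In the absence of ligand it is held outside the nucleus in complexes with Hsp90, and a P2A peptide lets the ribosome release it as a protein separate from RBPMS. In bulk RNA, fewer cells of a type and less RNA per cell cannot be told apart.

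In mm10, Rbpms is a minus-strand gene of chromosome 8, between 33782644 and 33929863. In GENCODE for the GRCm38 assembly it has 15 transcripts, of which 4 are complete protein-coding ones with 3 distinct coding ends. The last 60 coding bases of 2 of these ends are shown, because the cassette is fused to the C-terminus and the coding ends decide which transcripts can carry it. Capitals mark the stop codon.
Rbpms-203 and Rbpms-213: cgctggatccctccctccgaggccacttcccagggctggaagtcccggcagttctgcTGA
Rbpms-201: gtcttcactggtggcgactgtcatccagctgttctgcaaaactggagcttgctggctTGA
The first of these sequences lies at chr8:33795088-33795147 and closes proteins of 197 residues. The second is split between chr8:33789392-33789445 and chr8:33784181-33784186 and closes a protein of 191 residues. The guide RNA given in the study's methods matches the first sequence across its stop codon and does not match the second. The insertion was thus aimed at the coding end of Rbpms-203 and Rbpms-213. The gene tables give 1 TPM value per gene, so the transcripts were not separated here.

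Among all genes tested, Rbpms itself was the single gene that differed between Cre/Cre and +/+ with a limma adjusted p up to 0.05. That is 0.00658% of the genes tested. Its TPM were 43.2, 38.4 and 43.4 in the +/+ libraries and 19.7, 19.1 and 24.2 in the Cre/Cre libraries, with 31.3, 32.2 and 33.1 in the Cre/+ libraries between them. The lowest +/+ library and the highest Cre/Cre library were thus well apart. Rbpms fell by 0.96 on the log2(TPM + 1) scale (standard error, SE, 0.10, adjusted p = 0.000581), with a 95% confidence interval from -1.17 to -0.75. The means were 41.7 ± 2.85 TPM in +/+ and 21.0 ± 2.80 TPM in Cre/Cre (SD, n = 3 each). The exact permutation test of 3 against 3 TPM values gave p = 0.1 (two-sided), the smallest it allows. With a fold change of at least 2 required as well, 0 genes passed in limma, while 819 genes were lower and 240 higher at p under 0.05 before adjustment. No other tool was run on these values. Between 0 and 4 genes passed both limits under the alternative settings.

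Rbpms2, the paralog of Rbpms that is also expressed in RGCs, had 31.8, 34.9 and 36.7 TPM in +/+ and 27.5, 35.9 and 30.4 TPM in Cre/Cre. The genotypes overlapped. The log2 fold change was -0.14, with an interval from -0.36 to 0.07 (adjusted p = 0.855), and the exact permutation p was 0.3. Around Rbpms, 22 other tested genes lay within 2 Mb of either end of the gene, and 0 of them passed an unadjusted p under 0.05 in either direction. Their median log2 fold change was 0.02. Gtf2e2, a subunit of the general transcription factor TFIIE and the nearest of them, was at 43.1 TPM in +/+ and 44.8 TPM in Cre/Cre on average, with a log2 fold change of 0.06 (standard error 0.09). Dctn6, a dynactin subunit, had 129 and 119 TPM and a log2 fold change of -0.13 (standard error 0.10). Dusp4, a MAP kinase phosphatase 878 kb away, had the smallest adjusted p of the neighbours (0.723) at 75.1 TPM in +/+ and 65.0 TPM in Cre/Cre. Its Cre/Cre values all lay below its +/+ values. In 1 other neighbour the genotypes did not overlap, the predicted gene Gm3985, at 1.90, 2.06 and 1.35 TPM in +/+ and 2.32, 2.44 and 2.47 TPM in Cre/Cre. The highest log2 fold change of the neighbours was 1.1165 for Mir6395 (SE 0.80), whose values overlapped at 0.321, 0 and 2.45 TPM in +/+ and 0.712, 7.19 and 2.31 TPM in Cre/Cre.

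**Figure D1:**
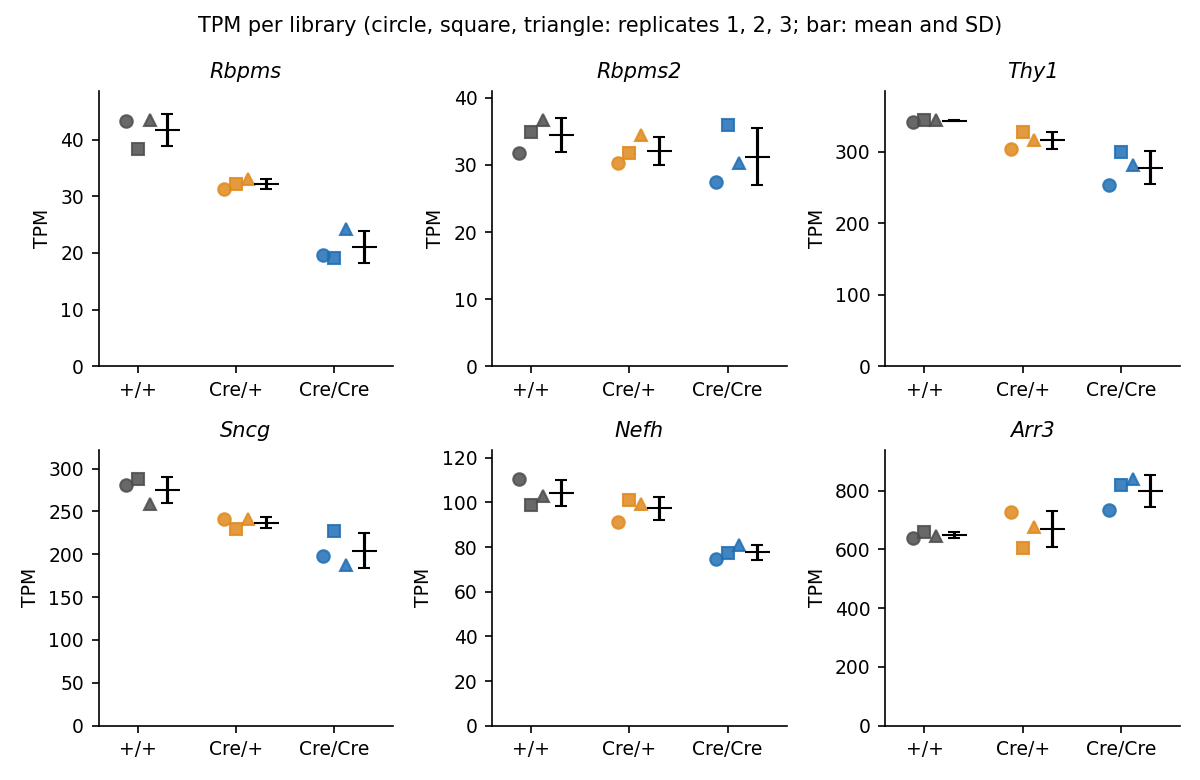
TPM (linear axes from 0) of Rbpms, its paralog Rbpms2, the RGC genes Thy1, Sncg and Nefh, and the cone gene Arr3 in each of the 9 libraries, grouped by genotype, with the mean and SD of 3 libraries beside the points. Rbpms falls into 3 separate groups, from 38.4 TPM or more in +/+ down to 24.2 TPM or less in Cre/Cre, while Rbpms2 overlaps.

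The libraries of Cre/Cre were not alike, and the results below are given with this in view. The 6 libraries held 4.054 to 4.635 gigabases of aligned sequence, as derived from coverage and FPKM. In Cre/Cre replicate 1, Rn45s (the ribosomal RNA precursor) took 9.21% of all TPM, against 0.0827% to 0.242% in the other 5. Its genes had a median ratio of 0.917 to their geometric means over the 9 libraries, where the others of these genotypes had 0.985 to 1.03. Cre/Cre replicate 2 held more lens RNA, with a summed TPM of the lens list of 1459 against 126 to 340, though the lens gene Lim2 was listed at 0 in all 3 Cre/Cre libraries. Xist was between 516 and 571 TPM in +/+ and 547 TPM in Cre/Cre replicate 2, but 2.08 and 3.16 TPM in Cre/Cre replicates 1 and 3, in which Y-linked transcripts such as Ddx3y (54.8 and 75.0 TPM) were present. No +/+ library had this pattern. By these transcripts Cre/Cre replicates 1 and 3 were male, and Cre/Cre replicate 2 and all +/+ libraries were female. Cre/+ replicate 3 was male too, with Xist at 2.82 TPM and Ddx3y at 72.3 TPM. Genotype is thus partly confounded with sex, so Xist was tried as a covariate. In that fit the Xist term comes from differences within Cre/Cre and Cre/+. Of Cre/Cre, replicate 2 alone shares the Xist level of +/+. A smaller count in that fit can therefore reflect lower precision, which cannot be told apart from a part of sex. The part of these features in each result was otherwise not tested. For the retina label, all 24 genes of the rod list were above the limit for testing.

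Below the adjusted threshold, Cre/Cre had more genes lower than higher. At an unadjusted p under 0.05, 5.39% of the genes tested were lower (819 genes) and 1.58% were higher (240 genes). All 3 Cre/Cre values lay below all 3 +/+ values for 8.05% of the genes tested (1224 genes), and above them for 2.7% (410 genes). The libraries contributed unequally. Cre/Cre replicate 1 was below every +/+ library in 55.1% of the genes, replicate 2 in 22.8% and replicate 3 in 23.8%. Without Cre/Cre replicate 1 the order turned, with 3.58% lower (544 genes) and 5.9% higher (896 genes). After dividing each library by its median gene ratio, 4.72% were lower (717 genes) and 556 genes were higher. With Xist as a covariate, 2.97% were lower (452 genes). Leaving out short RNA genes before rescaling gave 501 lower and 770 higher genes. The median log2 fold change of all genes was -0.02, and 0.02 without Cre/Cre replicate 1, so the direction of the bulk of genes depended on that library and on the scaling.

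The measurements limit how large a difference could be for most genes. The median standard error of the log2 fold change was 0.11. The 95% interval lay within 1.5-fold of no change for 83.6% of the genes tested and within 2-fold for 95.4%. Precision depended on the level of the gene. Between 1 and 3 TPM, 34.2% of 1861 genes had an interval within 1.5-fold, and between 30 and 100 TPM, 98.3% of 4994 genes did. The median coefficient of variation was 6.36% in +/+ and 9.24% in Cre/Cre, and 5.34% between Cre/Cre replicates 2 and 3. The last value rests on 2 libraries and the others on 3, so it cannot be set directly against them. By chromosome, the median log2 fold change ran from -0.05 (chromosome 19) to close to 0 on the autosomes and was -0.03 on X, and for chromosome 8, which carries Rbpms, it was -0.02. The 5 tested genes of the Y chromosome, which follow the libraries with Y-linked transcripts, had a median of 3.28.

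**Figure D2:**
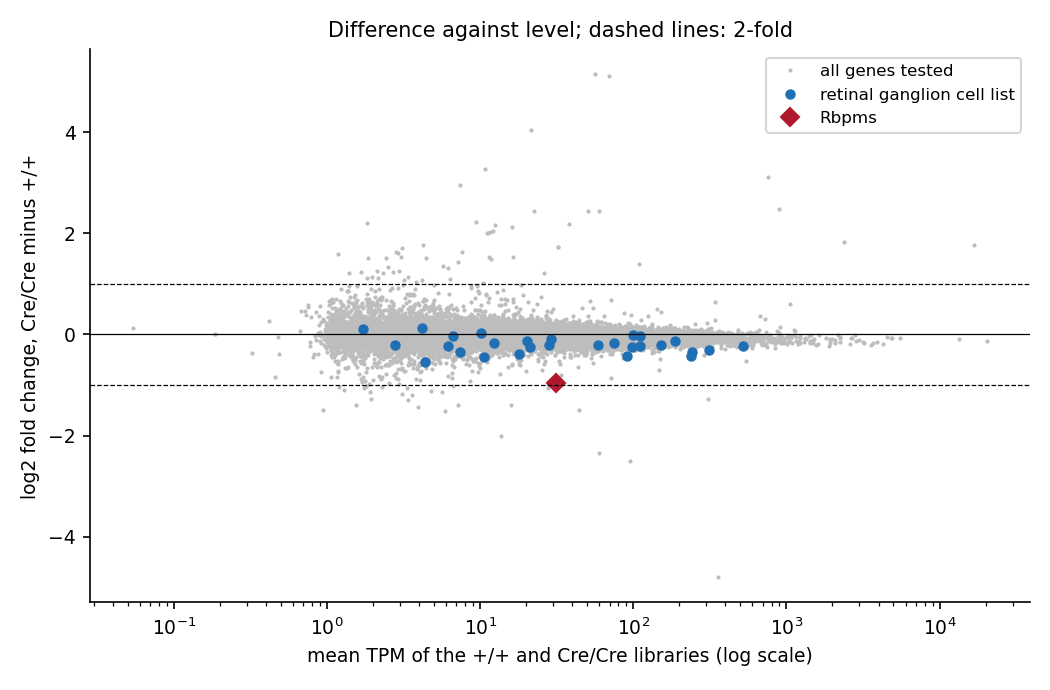
Log2 fold change of Cre/Cre minus +/+ for each of the 15198 genes tested, against the mean TPM of the 6 libraries on a log axis, with Rbpms and the 28 genes of the RGC list marked. Rbpms lies at -0.96, close to the dashed 2-fold line, and the RGC genes lie between -0.54 and 0.12.

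The RGC list is of interest first, since the cassette is expressed in these cells. Of its 28 genes, all tested, 0 passed an adjusted p of 0.05 in limma (smallest 0.126, for Nefh). At an unadjusted p under 0.05, 13 of the 28 were lower and 0 were higher in Cre/Cre, where the share of lower genes among all genes tested was 5.39%. Among all genes between 100 and 1000 TPM, where Thy1, Nefl, Nefm and Sncg lie, 191 of 2020 were lower. For 12 of the 28 the genotypes did not overlap, with each of the 12 lower in Cre/Cre, against 8.05% of all genes. The median log2 fold change of the list was -0.21, against -0.02 over all genes. Cre/Cre replicate 1 was below every +/+ library for 25 of the 28 genes, replicate 2 for 16 and replicate 3 for 14, beside 55.1%, 22.8% and 23.8% of all genes in those libraries. Without Cre/Cre replicate 1, 7 genes were lower and 0 higher, beside 3.58% and 5.9% of all genes, and the median was -0.12. With Xist as a covariate, 5 genes were lower, beside 2.97% of all genes, with a median of -0.20. With median-ratio scaling 12 were lower, beside 4.72% of all genes, with a median of -0.18.

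Genes of the axonal and neuritic cytoskeleton ranged from -0.42 (Nefh) to -0.03 (Stmn2) around the list median of -0.21. Nefh, the heavy neurofilament subunit, had 110, 99.0 and 103 TPM in +/+ and 74.5, 77.3 and 81.0 TPM in Cre/Cre. The Cre/+ libraries had 91.4, 101 and 99.4 TPM, so all 3 Cre/Cre libraries were below the others. Nefh had a log2 fold change of -0.42 (SE 0.08, adjusted p = 0.126), and -0.39 without Cre/Cre replicate 1. Nefl, the light subunit, had 570, 542 and 563 TPM in +/+ and 415, 505 and 512 TPM in Cre/Cre (log2 fold change -0.23), with replicate 1 the lowest. Nefm, the medium subunit, overlapped, at 296, 266 and 246 TPM in +/+ and 173, 217 and 253 TPM in Cre/Cre. Tubb3, a neuronal beta-tubulin, had a log2 fold change of -0.22, which became -0.13 without Cre/Cre replicate 1. In contrast, Stmn2, a microtubule regulator of growing neurites, had 108, 112 and 111 TPM in +/+ and 89.8, 122 and 116 TPM in Cre/Cre. Its values in Cre/Cre lay on both sides of +/+, and its log2 fold change was -0.03 with an interval from -0.23 to 0.18.

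Genes at the surface and in the cytoplasm of RGCs gave a similar range. Thy1, a membrane glycoprotein used to identify RGCs, had 342, 344 and 344 TPM in +/+ and 253, 299 and 281 TPM in Cre/Cre, with no overlap. Its log2 fold change was -0.31 (SE 0.08, adjusted p = 0.450). Sncg, gamma-synuclein, had 280, 287 and 258 TPM in +/+ and 198, 227 and 188 TPM in Cre/Cre. Here replicate 3 was lowest, and Cre/+ lay between the others at 241, 230 and 241 TPM. Sncg had a log2 fold change of -0.43 (SE 0.08, adjusted p = 0.133), and the adjusted p was 0.0479 without Cre/Cre replicate 2 and otherwise between 0.0755 and 0.650. Nrn1 (neuritin, -0.24) and Chrna6 (a nicotinic receptor subunit, -0.23) did not overlap either, while Slc17a6, the vesicular glutamate transporter of RGCs, had 68.9, 61.2 and 57.2 TPM in +/+ and 42.9, 59.6 and 61.5 TPM in Cre/Cre. For Slc17a6 the difference came from replicate 1, and its log2 fold change without that library was -0.04.

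Transcription factors of RGC development differed among themselves. Pou4f2, needed for RGC differentiation, had 11.998, 12.9 and 11.969 TPM in +/+ and 7.08, 10.8 and 8.59 TPM in Cre/Cre (log2 fold change -0.45, standard error 0.14, adjusted p = 0.543). Its relative Pou4f1 had 22.4, 23.9 and 22.8 TPM in +/+ and 16.8, 20.2 and 21.2 TPM in Cre/Cre (-0.24). Pou4f3, also of this family, had a log2 fold change of -0.03 with an interval from -0.37 to 0.32. Isl2 was at -0.35 with no overlap, and Ebf1 and Ebf3 were at -0.13 and -0.21 with overlap. Among genes of RGC subtypes, Opn4, the melanopsin of intrinsically photosensitive RGCs, had 4.52, 5.37 and 6.19 TPM in +/+ and 4.01, 3.58 and 2.57 TPM in Cre/Cre. That was the lowest log2 fold change of the list (-0.54, standard error 0.21), but the Cre/+ libraries also reached down to 2.51 TPM. Kcng4, a potassium channel subunit of alpha RGCs, was at -0.38. Jam2 (-0.02), Col25a1 (0.02), Foxp2 (0.11) and Fstl4 (0.12), each used as a marker of other subtypes, overlapped and lay near 0 or above it. The intervals of 20 of the 28 genes lay within 1.5-fold of no change and those of all 28 within 2-fold.

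**Figure D3:**
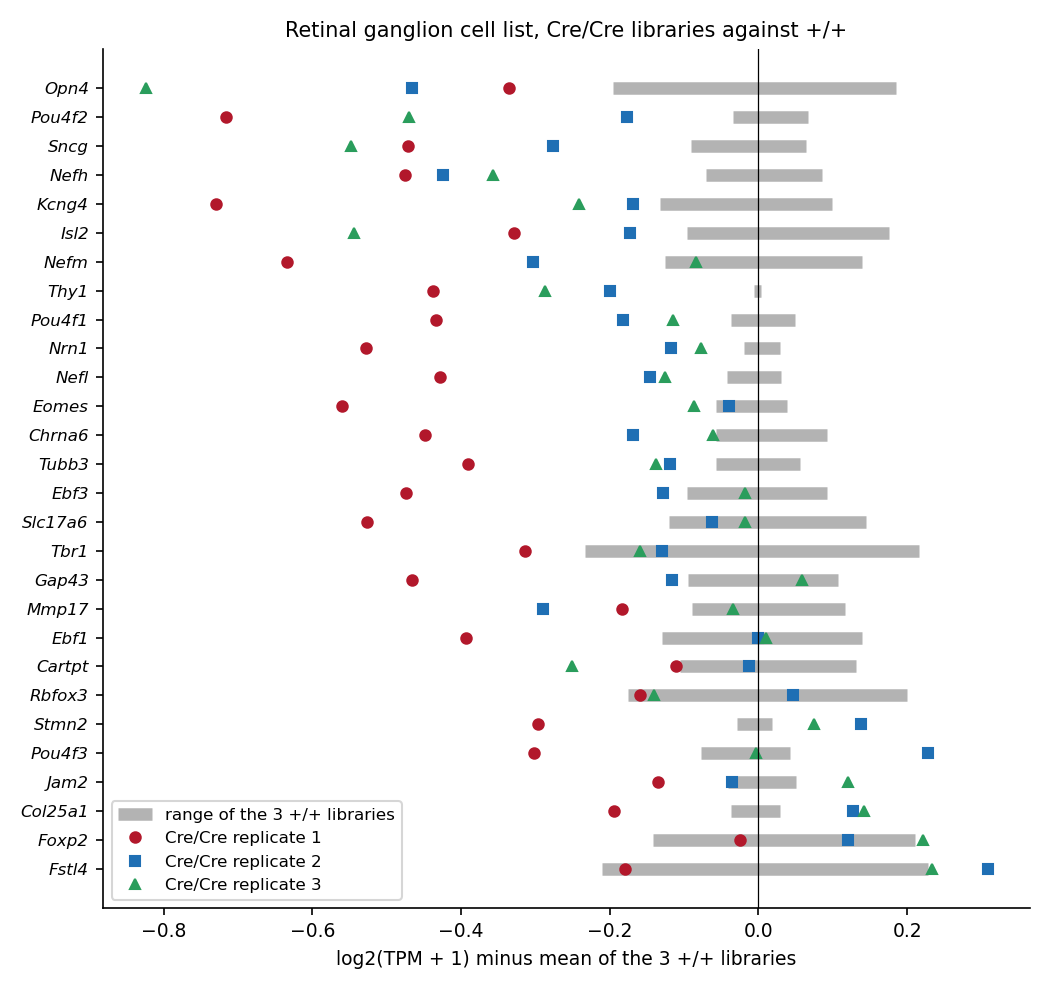
Each of the 28 RGC genes in the 3 Cre/Cre libraries, as log2(TPM + 1) minus the mean of the +/+ libraries, with the range of the 3 +/+ libraries as a grey bar and genes ordered by their log2 fold change. Cre/Cre replicate 1 lies below the grey bar for 25 genes, and the other libraries for 16 and 14.

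Other cell types gave smaller counts. Of the 24 rod genes, 2 were lower and 0 higher at an unadjusted p under 0.05, beside 5.39% and 1.58% of all genes, with a list median of -0.07. They were Pde6g, the inhibitory subunit of the rod phosphodiesterase (-0.18), and Rcvrn, recoverin (-0.14). All 24 rod genes had intervals within 1.5-fold. Cone genes went both ways, with 3 of 13 lower and 1 higher. Opn1sw, the short-wavelength opsin, had 641, 613 and 598 TPM in +/+ and 503, 543 and 592 TPM in Cre/Cre. Gnb3 and Gngt2, subunits of the cone transducin, were at -0.24 and -0.22. Arr3, the cone arrestin that ends the response of cone opsins, went the other way, at 641, 660 and 645 TPM in +/+ and 736, 818 and 839 TPM in Cre/Cre. Every Cre/Cre library was above every +/+ library for Arr3, with a log2 fold change of 0.30 (standard error 0.08, adjusted p = 0.542).

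In the inner retina, bipolar genes had 6 of 20 lower and 0 higher, with a median of -0.14. For this and the next lists, the shares over all genes tested were 5.39% lower and 1.58% higher. These 6 were Grm6 and Nyx of the ON-bipolar synapse, the calcium-binding genes Cabp2 and Scgn, Pcp2, and the transcription factor Irx6. Cabp2 had the lowest log2 fold change of them, -0.48, at 17.1, 23.5 and 22.8 TPM in +/+ and 13.0, 14.8 and 16.7 TPM in Cre/Cre. Without Cre/Cre replicate 1, 3 of the 20 were lower, beside 3.58% of all genes, and the median was -0.06. Amacrine genes had 3 of 24 lower, namely Slc32a1 (the vesicular GABA transporter, -0.16), Calb2 (calretinin, also present in RGCs, -0.20) and Sst (somatostatin, -0.35). Calb2 was tight within each genotype, with 576, 596 and 600 TPM in +/+ and 489, 528 and 526 TPM in Cre/Cre. Of 8 horizontal cell genes 1 was lower, Onecut1 (-0.43), and of 16 Müller glial genes 2 were, Car14 and Dbi (-0.20 and -0.15). In none of these lists did a gene pass the adjusted p in limma. The 13 microglial genes had 0 lower and 0 higher at an unadjusted p under 0.05, and the 10 endothelial genes had 1 lower, Kdr (-0.29), a receptor of vascular endothelial growth factor. Of 8 pigment epithelium genes and 8 pericyte and smooth muscle genes 0 were lower or higher.

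The list medians by library show how far these shifts rest on 1 sample. For RGC genes the medians relative to the +/+ mean were -0.41, -0.12 and -0.08 in Cre/Cre replicates 1, 2 and 3, and -0.28, -0.14 and -0.11 after median-ratio scaling. All 3 lay below the +/+ libraries, which ran from -0.01 to 0.01 in TPM and from -0.03 to 0.02 after scaling. The +/+ libraries lie around 0 because differences are taken from their mean. Cre/+ replicates 1, 2 and 3 had -0.060, -0.041 and -0.007 in TPM and -0.063, -0.036 and -0.023 after scaling. Of these, replicates 1 and 2 also lay below the +/+ libraries on both scales. In Cre/Cre, bipolar genes had -0.36, -0.09 and -0.02 in TPM and -0.23, -0.11 and -0.05 after scaling. After scaling, the value of replicate 3 fell inside the +/+ range, which reached -0.05. Rod genes in Cre/Cre had -0.20, -0.05 and 0.01 in TPM and -0.07, -0.07 and -0.02 after scaling. There the last library was no lower than +/+ replicate 3, which stood at -0.06.

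**Figure D4:**
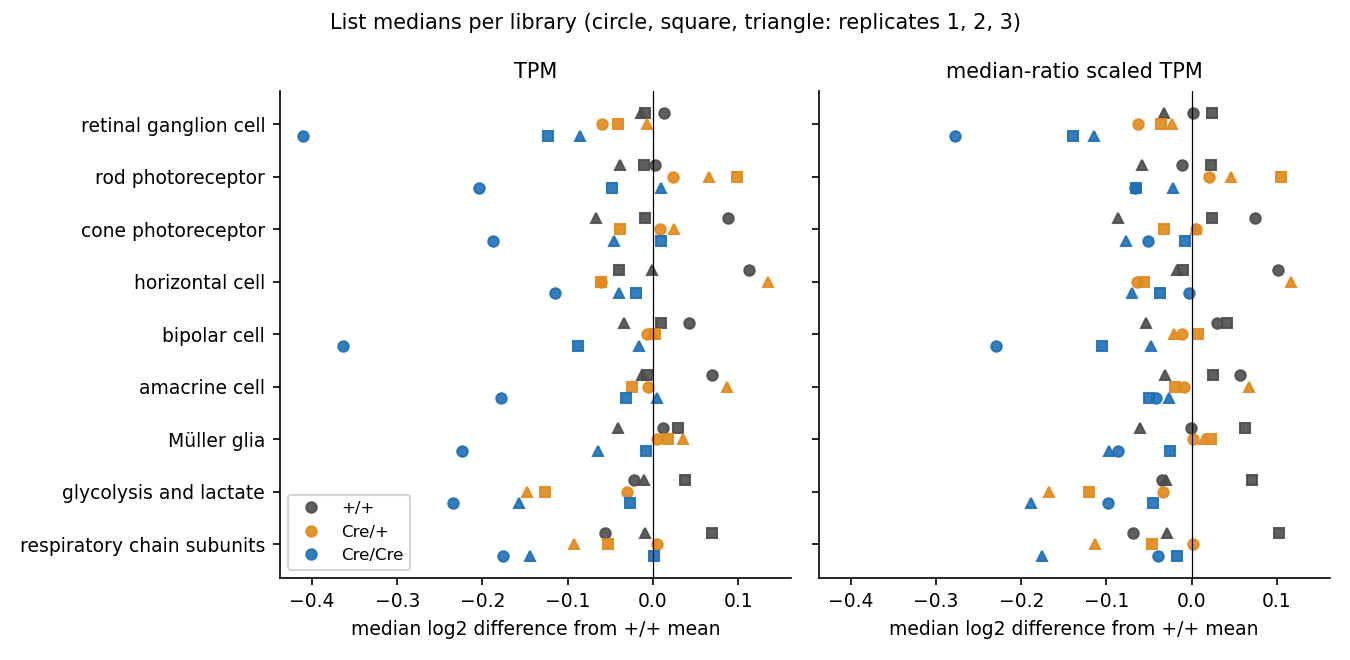
Median over each list of the log2 difference from the +/+ mean in each of the 9 libraries, in TPM (left) and after median-ratio scaling (right), coloured by genotype. In TPM, Cre/Cre replicate 1 (circle) is the lowest of the 9 in every list shown. After scaling, all 3 Cre/Cre libraries of the RGC list lie between -0.28 and -0.11.

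Several lists bear on the presence of CreERT2 itself. Cre can cut DNA at cryptic sites, so genes of the p53 response were examined. Of 14 tested, 1 was lower and 1 higher at an unadjusted p under 0.05, beside 5.39% and 1.58% of all genes, with a median of 0.04. Bbc3 (Puma, a pro-apoptotic gene) had 5.87, 5.83 and 8.30 TPM in +/+ and 5.19, 3.66 and 3.74 TPM in Cre/Cre, and Perp had 2.14, 1.75 and 1.65 against 2.34, 4.06 and 2.74 TPM. In Cre/+, Bbc3 had 4.39, 3.89 and 2.23 TPM, all below +/+, and Perp had 2.16, 1.86 and 2.98 TPM. Mdm2, a direct p53 target, had a log2 fold change of 0.01 with an interval from -0.15 to 0.16. For Cdkn1a, the cell cycle inhibitor, the interval was wide, from -0.84 to 1.35. Of 17 genes of Hsp90 and the heat shock response, 5 were lower and 0 higher, beside 5.39% and 1.58% of all genes, with a median of -0.11. They were Hspa1a, Hspa1b, the co-chaperones Dnajb1 and Ahsa1, and the mitochondrial co-chaperonin gene Hspe1. The Hsp90 genes Hsp90aa1 and Hsp90ab1 were not among them, at log2 fold changes of -0.07 and -0.14 with overlapping values. Hspa1a had 73.2, 83.4 and 76.4 TPM in +/+ and 71.5, 62.2 and 58.9 TPM in Cre/Cre. Hspa1a and Hspa1b are near-identical copies, so their reads may be shared between them. Without Cre/Cre replicate 1, 5 genes were lower, beside 3.58% of all genes, with a median of -0.06. Esr1, the endogenous oestrogen receptor, had 2.01, 1.57 and 1.502 TPM in +/+ and 1.49, 1.70 and 1.89 TPM in Cre/Cre. In its list 0 of 7 genes were lower or higher. The 7 include the oestrogen-related receptor genes Esrra, Esrrb and Esrrg, so the count is not one of Esr1 targets alone.

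Genes of injury and gliosis gave no call at the adjusted threshold. For each list in this paragraph, the shares over all genes tested at an unadjusted p under 0.05 were 5.39% lower and 1.58% higher. Gfap, the intermediate filament of reactive glia, had 38.6, 45.6 and 29.97 TPM in +/+ and 27.5, 35.7 and 28.0 TPM in Cre/Cre, and the genotypes overlapped. Of 13 gliosis genes, 1 was lower at an unadjusted p under 0.05. This was Socs3, an inhibitor of cytokine signalling, at 4.38, 5.72 and 4.07 TPM in +/+ and 3.18, 2.44 and 2.19 TPM in Cre/Cre (log2 fold change -0.67, standard error 0.18, adjusted p = 0.542). Among 11 genes of axon injury and cell stress, Atf4, a transcription factor of the stress response, was lower (-0.18) with overlapping values. The interferon list had 0 of 16 in either direction. RBPMS targets known from smooth muscle splicing had 0 of 4 lower or higher, with log2 fold changes between -0.11 and -0.04. These values are gene totals, and splicing itself was not measured by them. Of 20 neuronal RNA-binding protein genes 1 was lower, Celf3 (-0.22), and it overlapped.

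Most genes of energy metabolism are abundant in the retina, and abundant genes were more often lower. Whether level has a part in the values of these lists was not tested. Of all genes between 100 and 1000 TPM, 191 of 2020 were lower at an unadjusted p under 0.05, and above 1000 TPM 11 of 71 were, with medians of -0.06 and -0.09 on the log2 scale. The 20 genes of glycolysis and lactate transport had 7 lower and 0 higher at an unadjusted p under 0.05, with a median of -0.15, beside 5.39% lower and 1.58% higher over all genes. They were Gpi1, Tpi1, Gapdh, Pgam1, Pkm, Ldha and Slc16a3. Pkm, pyruvate kinase, had 3786, 3906 and 3755 TPM in +/+ and 3044, 3609 and 3298 TPM in Cre/Cre. With Xist as a covariate 0 of the 20 were lower at an unadjusted p under 0.05, beside 2.97% of all genes. Sex and the lower precision of that fit cannot be told apart here. Without Cre/Cre replicate 1 there were 3, beside 3.58% of all genes. The Cre/+ libraries, compared with the same +/+ libraries, had a median of -0.12 with 3 genes lower. Of 81 respiratory chain genes 11 were lower and 0 higher, with a median of -0.10, and of 77 mitochondrial ribosomal protein genes 8 were lower and 1 higher, beside the same 5.39% and 1.58%. By library, the respiratory median was -0.18, 0.00 and -0.14 in Cre/Cre replicates 1, 2 and 3, and replicate 2 lay inside the +/+ range of -0.06 to 0.07. In the respiratory list 0 genes were lower with Xist as a covariate, beside the same 2.97% of all genes. Of 85 cytosolic ribosomal protein genes 1 was lower. The summed TPM of the respiratory list was 18646 to 20528 in +/+ and 17043 to 19527 in Cre/Cre, so the genotypes overlapped.

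Ranked by p within each direction, the leading genes among those whose genotypes did not overlap and whose mean TPM was at least 5 were taken, 12 lower and 12 higher. With the exception of Rbpms, none passed the adjusted p in limma, and the values of the others are a description of the top of the ranking. After Rbpms, the lower ones were Nefh, Mmp9, Mpv17l2, Sncg, Nxph3, Cck, Ccl21d, Zfp991, Crlf2, Metrn and DQ267100. Mmp9, a matrix metalloproteinase, had 18.9, 18.1 and 21.8 TPM in +/+ and 12.3, 13.0 and 12.4 TPM in Cre/Cre, with Cre/+ at 16.6, 13.7 and 14.5 TPM. Its log2 fold change was -0.60 (SE 0.11, adjusted p = 0.126). Cck, the neuropeptide cholecystokinin, had 38.1, 38.4 and 40.3 TPM in +/+ and 24.5, 24.4 and 31.7 TPM in Cre/Cre (-0.53), and Cre/+ reached 40.5 TPM. Nxph3, a neurexin ligand, had 23.0, 20.5 and 22.1 TPM against 14.2, 14.6 and 16.8 TPM (-0.50). In Mpv17l2, a gene of mitochondrial ribosome assembly, the Cre/+ libraries were as low as Cre/Cre, with 23.1, 30.01 and 26.9 TPM beside 27.0, 26.8 and 25.6 TPM, while +/+ had 34.9, 41.9 and 43.8 TPM. Ccl21d and Zfp991 had larger fold changes (-1.01 and -1.52) at lower levels. Both belong to families of near-identical copies, so their values are uncertain.

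The higher ones were Gm35612, Dus4l, Snord89, Pfdn4, LOC100861978, Snora3, Mir1291, Gm9958, Arr3, Mir3061, 2310030A07Rik and Adgrl4. Of these, 4 are small RNA genes (Snord89, Snora3, Mir1291 and Mir3061), which commonly lie inside longer genes whose reads can be counted with them. Pfdn4, a subunit of the prefoldin chaperone, had 22.1, 21.2 and 24.6 TPM in +/+ and 28.3, 33.0 and 33.96 TPM in Cre/Cre, with 27.0, 27.4 and 29.6 TPM in Cre/+. Its log2 fold change was 0.47 (SE 0.10, adjusted p = 0.181). Dus4l, which encodes a dihydrouridine synthase for transfer RNA, had 14.4, 12.4 and 14.9 TPM against 19.4, 22.6 and 19.8 TPM (0.54), with Cre/+ at 18.0, 18.3 and 18.6 TPM. For both genes the values of Cre/+, which are set against the same +/+ libraries, lay above all +/+ values. Gm35612, a predicted gene, had 6.65, 5.68 and 7.37 TPM in +/+ and 16.9, 15.1 and 11.2 TPM in Cre/Cre, with Cre/+ at 8.57, 10.7 and 14.3 TPM. Its log2 fold change was 1.01 (adjusted p = 0.126), and the adjusted p was 0.0236 when only the 6 libraries of +/+ and Cre/Cre were fitted.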

How the data were processed

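Whole retinas were sequenced as strand-specific poly(A) libraries. Per the labels, the authors used Trimmomatic, FastQC, HISAT2, SAMtools, StringTie and DESeq2 with the mm10 genome. The versions and the annotation are not given in the sources used here. The authors deposited StringTie gene tables with TPM (scaled to 1000000 per library), FPKM and coverage (average read depth per base). TPM was used throughout, FPKM as an alternative, and coverage for the aligned bases. Counts were not used here, since these tables hold none, so the authors' DESeq2 test was not repeated and counting error is unknown.

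TPM were summed by gene name. Genes averaging at least 1 TPM across the 9 libraries were tested with limma 3.58.1 in R 4.3.3 (trend and robust prior) on log2(TPM + 1), which understates the change of low genes. All 9 libraries entered 1 model with genotype as the only term and 6 residual degrees of freedom. P-values were adjusted over all genes tested by the Benjamini-Hochberg method, and the limits of 0.05 and 2-fold follow the study's methods. P-values measure the spread between these libraries, each a pair of retinas. The script was tested on simulated data. "Not overlapping" means that all 3 values of a genotype lie beyond all 3 of the other.

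The members and gene lists were chosen with earlier results of these data known. The histone and microRNA name patterns were corrected after the files were seen. Named genes are Rbpms and Rbpms2, genes past the adjusted p, the 12 lower and 12 higher genes with the smallest p as defined in the text, the members of each list past an unadjusted p of 0.05 or with its lowest or highest fold change, markers of libraries that stand apart, and genes within 2 Mb of Rbpms. Other members were named after their values were seen, to show the range of a list. Coding ends came from GENCODE vM21, and some items are not reported here. Summaries and plots used Python 3.11.15 and matplotlib 3.10.9. Alternatives changed the pseudocount, filter, unit, scaling, prior, covariates and libraries.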

Additional observations from a re-analysis of the deposited data

How the results depend on the processing

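The log2 fold change of Rbpms kept its direction and its side of the adjusted threshold in limma under every alternative run, from -1.04 to -0.91 (adjusted p 4.85e-05 to 0.0238), and from -1.06 to -0.90 with each of the 9 libraries left out (0.00017 to 0.0195). The 1 gene past the adjusted p became 3 genes with a pseudocount of 0.1, 3 with Xist as a covariate and 5 with only the 6 libraries of both genotypes, and from 1 to 4 with a library left out (4 without +/+ replicate 3 and 4 without Cre/Cre replicate 2). The 0 genes past both limits became 2, 2 and 4 under the same 3 settings, 1 with a fold limit of 1.5, 1 with Xist as a covariate and median-ratio scaling, 1 with Xist as a covariate and without Cre/Cre replicate 1, and from 0 to 3 with a library left out. Genes lower at an unadjusted p under 0.05 (819) numbered 452 with Xist as a covariate and 501 with short RNA genes left out and TPM rescaled, and from 525 to 1102 with a library left out. Genes higher (240) numbered 370 without a filter, 107 with FPKM, 556 with median-ratio scaling, 770 with short RNA genes left out, 665 with median-ratio scaling and without Cre/Cre replicate 1, 537 with Xist as a covariate and median-ratio scaling, 707 with Xist as a covariate and without Cre/Cre replicate 1, and from 151 to 896 with a library left out. The causes were not tested. The 2 settings that combine Xist with another choice were added after seeing the data. Counts of genes without overlap ran from 782 to 1927 (lower) and from 203 to 1986 (higher), and from 1491 to 2557 and 623 to 2419 with a library left out, where fewer libraries make it easier not to overlap. Of 523 comparisons of named genes with an alternative, 519 kept direction and side, 0 turned, and 4 newly passed the adjusted threshold (Sncg and Ccl21d without Cre/Cre replicate 2, Gm35612 with the 6 libraries, Snora3 without +/+ replicate 3). Of 919 list medians 869 moved by less than the spread. The histone median went from 0.24 to -0.13 without Cre/Cre replicate 1. The 3 pairs of +/+ and Cre/Cre libraries with the same replicate number had correlations of -0.12 to 0.04 in their deviations, and the pairs with Cre/+ had -0.09 to 0.13, so the numbers were not taken to pair the libraries. With a replicate block, 1 gene passed and Rbpms was at -0.96 (adjusted p = 0.00496). Alternatives that need counts were not run.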

Other observations

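Some gene groups outside the account above varied with single libraries. Immediate early genes, which respond to neuronal activity and handling, had 0 of 13 lower or higher at an unadjusted p under 0.05. For this and the clock list, the shares over all genes tested were 5.39% lower and 1.58% higher. Egr1 had 32.8, 23.5 and 30.7 TPM in +/+ and 12.8, 127 and 13.1 TPM in Cre/Cre, so that replicate 2 was above and replicates 1 and 3 were below all +/+ libraries. Nr4a1 had 61.0, 57.8 and 63.6 TPM in +/+ and 31.0, 91.1 and 24.1 TPM in Cre/Cre. There too, replicate 2 was above and replicates 1 and 3 were below all +/+ libraries. Of 16 clock genes 1 was lower, Per1, a light-responsive repressor of the clock, at 97.5, 95.6 and 103 TPM in +/+ and 74.2, 92.4 and 52.5 TPM in Cre/Cre (log2 fold change -0.47, adjusted p = 0.655 in limma). The Cre/+ libraries had 78.1, 68.4 and 65.4 TPM of Per1. Rps27, a ribosomal protein gene, had 7.99, 574 and 648 TPM in +/+ and 590, 17.0 and 20.8 TPM in Cre/Cre. Its values split within both genotypes, so they are uncertain, and the cause was not tested.

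Of 62 potassium channel genes 4 were lower and 0 higher at an unadjusted p under 0.05, beside 5.39% and 1.58% of all genes tested, with a median of -0.08. Kcna5, Kcng4 and Kcnh6 were among those lower. Kcnh6, of the ERG family, had 38.6, 37.3 and 35.0 TPM in +/+ and 30.2, 31.0 and 29.8 TPM in Cre/Cre (-0.28, adjusted p = 0.542), and -0.27 without Cre/Cre replicate 1. Glutamate receptor genes had 1 of 26 lower (Grm6) and GABA and glycine receptor genes 1 of 22 (Gabrd, -0.23), with medians of 0.01 and -0.01. The 20 genes of synaptic vesicle fusion had a median of -0.06, and the syntaxin gene Stx1a was lower (-0.25). Of 56 clustered protocadherin genes, which give neurons surface identities, 2 were lower (Pcdha7 and Pcdhb2) and 1 was higher (Pcdhga7). Members of this cluster share sequence, so their values are uncertain. Small nucleolar RNA genes had 1 of 96 lower and 6 higher with a median of 0.26, and microRNA genes had 22 of 305 lower and 14 higher with a median of 0.01, beside the same shares of 5.39% and 1.58%. The summed TPM of small nucleolar RNA genes was 876, 857 and 868 in +/+ and 2499, 1017 and 946 in Cre/Cre replicates 1, 2 and 3. That of microRNA genes was 4026, 3867 and 4027 in +/+ and 3914, 4177 and 4075 in Cre/Cre, and overlapped. Of 13 visual cycle genes 1 was lower, Rdh11 (-0.17), a retinol dehydrogenase.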
